A study of Mus musculus with 4 samples.

Results

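Cytochrome P450 families 1 to 4 were described in regenerating mouse liver. The members were all genes whose symbol is Cyp, a family number from 1 to 4, a subfamily letter and a gene number, without pseudogenes, and each was read from its brightest probe set. They were 77 of the 19505 genes named on the array: 3 of family Cyp1, 46 of Cyp2, 9 of Cyp3 and 19 of Cyp4. Each member had 1 probe set. Of the 77, 51 were bright, meaning that their mean over the 4 arrays reached 3.83 on the log2 scale, the median of all gene means. By family, 1 Cyp1, 30 Cyp2, 7 Cyp3 and 13 Cyp4 members were bright. The members closest to that limit were Cyp3a41a and Cyp2w1 just below it, with means of 3.72 and 3.56, and Cyp2b23 and Cyp2b9 just above it, with means of 3.93 and 3.94. The 26 dim members are described by counts and ranges, apart from those named on a list and those past 2-fold between times.

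The study asked how loss of Mcu in hepatocytes affects liver regeneration. Mcu encodes the pore of the channel that lets calcium into mitochondria. Male C57BL6J mice of 10 to 12 weeks with both Mcu alleles floxed (MCUloxp/loxp) received an adeno-associated virus by the tail vein. The knockdown group received AAV8-TBG-Cre and the littermate control group AAV8-TBG-Null. The TBG promoter directs Cre to hepatocytes, so the other cells of the liver keep their Mcu alleles. After 5 weeks, 70% of the liver was removed, and the remnant was taken 30 h later; the 0 h groups had the time 0 label. The 4 groups, control at 0 h, control at 30 h, knockdown at 0 h and knockdown at 30 h, had 1 array each. The series text describes pools of 4 animals, so the spread between animals was not measured, no difference below has a replicate check, and no test was run. The sample descriptions also speak of an ethanol diet that no other label names, and that of the knockdown array at 30 h gives 1 h after surgery; the titles and time labels were followed.

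The arrays gave log2 values between 0.94 and 12.9 per probe set, normalized together by the authors. Mcu, whose mean lies below the brightness limit, stood at 4.77 in control liver at 0 h, 4.30 in control liver at 30 h, 2.83 in knockdown liver at 0 h and 2.63 in knockdown liver at 30 h. It was 3.84-fold lower in the knockdown at 0 h and 3.18-fold lower at 30 h, on a low part of the scale where folds are understated. The 6 hepatocyte markers averaged between 11.1 and 11.19 on the 4 arrays. Kupffer cell markers averaged 5.27 and 5.89 in control liver at 0 h and 30 h, and 5.72 and 5.44 in knockdown liver. Endothelial markers averaged 5.26, 5.12, 5.52 and 4.92 in the same order. In these whole-liver samples, fewer cells of a type and less RNA per cell cannot be told apart.

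Cytochrome P450 enzymes are heme proteins that insert an oxygen atom into their substrates. Those of families 1 to 3 sit mostly in the endoplasmic reticulum of hepatocytes and oxidise drugs, other foreign chemicals, steroids and bile acids, while those of family 4 mainly hydroxylate the end of fatty acid chains. Their genes are known to be controlled by receptors that sense chemicals and lipids, by hepatocyte factors and, for the sex-biased members, by the pattern of growth hormone release, and many are known to fall in inflamed liver.

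Promoter sequences from RefSeq (build GRCm38.p6) are shown for members on which the results below turn, to make visible how alike near-copies are. Of the 77 members, 62 had a promoter window in the RefSeq table, and in each gene's first listed window the 250 bases before the start were searched on both strands. Each line gives the 120 bases before the start, 5′ to 3′ on the gene's strand, and the capitals mark either the word CAAAGTNC, of the type known for HNF4 proteins, or the word TTGCATAA, of the type known for C/EBP and PAR bZIP proteins. The words were chosen after the sequences were seen. The intervals are chr7:26307072-26307191 (plus strand) for Cyp2a4, chr7:26835219-26835338 (plus strand) for Cyp2a5, chr7:25897538-25897657 (plus strand) for Cyp2b10, chr5:145720137-145720256 (minus strand) for Cyp3a41a, chr5:145584731-145584850 (minus strand) for Cyp3a41b, chr19:40089559-40089678 (plus strand) for Cyp2c50 and chr19:40187287-40187406 (minus strand) for Cyp2c70.
Cyp2a4: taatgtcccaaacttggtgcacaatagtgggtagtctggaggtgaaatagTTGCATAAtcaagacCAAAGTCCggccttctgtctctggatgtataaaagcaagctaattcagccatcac
Cyp2a5: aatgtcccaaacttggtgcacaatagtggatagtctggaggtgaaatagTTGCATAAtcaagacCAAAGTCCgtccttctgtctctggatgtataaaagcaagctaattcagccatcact
Cyp2b10: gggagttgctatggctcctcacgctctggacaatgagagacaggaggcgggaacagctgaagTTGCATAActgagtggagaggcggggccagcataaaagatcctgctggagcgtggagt
Cyp3a41a: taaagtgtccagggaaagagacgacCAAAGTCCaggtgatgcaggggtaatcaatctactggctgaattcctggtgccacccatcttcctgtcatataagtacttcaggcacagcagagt
Cyp3a41b: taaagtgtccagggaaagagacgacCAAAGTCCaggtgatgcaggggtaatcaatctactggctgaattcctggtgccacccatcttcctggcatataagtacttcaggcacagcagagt
Cyp2c50: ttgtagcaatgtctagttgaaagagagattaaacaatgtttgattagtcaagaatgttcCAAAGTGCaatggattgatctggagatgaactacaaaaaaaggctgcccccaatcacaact
Cyp2c70: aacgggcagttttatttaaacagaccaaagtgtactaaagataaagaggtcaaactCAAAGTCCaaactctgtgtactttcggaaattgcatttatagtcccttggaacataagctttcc
Over 250 aligned bases the windows of Cyp3a41a and Cyp3a41b were the same at 249, and over 249 aligned bases those of Cyp2a4 and Cyp2a5 were the same at 245. Cyp2c50 and Cyp2c37 shared 199 of 248. CAAAGTNC stood in 21 of the 62 member windows (33.9%) and in 934 of all 27025 windows (3.46%). TTGCATAA stood in 5 of the 62 (8.06%), those of Cyp2a4, Cyp2a5, Cyp2b10, Cyp2b19 and Cyp2b23, and in 201 of all windows (0.744%). Of 2 other words searched, TATAAA stood in 38.7% of the member windows and 13% of all, and GCGTG, the core of the element bound by the aryl hydrocarbon receptor, in 17.7% and 28.2%. Cyp2f2 and Cyp4b1, described below, held neither CAAAGTNC nor TTGCATAA in the 120 bases before their start. The members are paralogues that share sequence, so these counts are not of independent genes, and a match is a description of letters, not a binding site. Bright members with CAAAGTNC (16) and without it (23) had median differences between 30 h and 0 h of -0.16 and -0.08 in control liver and of -0.36 and -0.12 in knockdown liver. TTGCATAA stood in the windows of 4 bright members, among them the near-copies Cyp2a4 and Cyp2a5, and was absent from 35. Their medians were 1.17 and -0.11 in control and 0.54 and -0.29 in knockdown liver. In control liver Cyp2a4 had 1.41, Cyp2a5 0.94 and Cyp2b10 1.52, while Cyp2b23 had -0.49. Both words were picked from windows of members shown for their differences, so neither split can test a link to those differences.

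Most bright P450 genes had lower values 30 h after surgery than at 0 h, in both genotypes. In control liver 30 of the 51 bright members were below their 0 h value and 21 above it, with a median log2 difference of -0.13, where the median of all 9759 bright genes was 0.10. In knockdown liver 34 were below and 17 above, with a median of -0.32 against -0.04 for all bright genes. The shares below 0 were 58.8% and 66.7% of the bright members, and 40.8% and 53.1% of all bright genes; above 0 lay 41.2% and 33.3% of the bright members, and 58.2% and 46.2% of all bright genes. The same 28 members (54.9%) were lower at 30 h in both genotypes, as were 2520 of all bright genes (25.8%), and all 28 stayed lower in both under the 4 other scalings. No array serves in both of these differences.

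Few of them differed by as much as 2-fold. In control liver 2 bright members, Cyp2b10 and Cyp2a4, passed 2-fold upward at 30 h, which is 3.92% of them beside 5.98% of all bright genes. Only Cyp2c54 was at least 2-fold lower, 1.96% beside 1.61%. Under quantile and cyclic loess normalization 5 (9.8%) and 4 (7.84%) were lower, beside 2.22% and 2.01% of all bright genes. In knockdown liver 2 were at least 2-fold higher, Cyp2b10 and Cyp4a14, 3.92% beside 2.64%. There, 6 of the 51 were at least 2-fold lower, 11.8% beside 2.74% of all bright genes. Under the same 2 normalizations the count was 5 and 4, as many as in control liver, so a larger count in the knockdown holds for the deposited scale but not for these. Median centring gave 6 in knockdown beside 1 in control liver, and bright-gene centring 4 beside 1. The 6 on the deposited scale were Cyp2c70, Cyp2f2, Cyp2u1, Cyp4a12a, Cyp4b1 and Cyp4f14. The plot of 30 h minus 0 h for each bright member shows the pair of differences gene by gene.

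**Figure D1:**
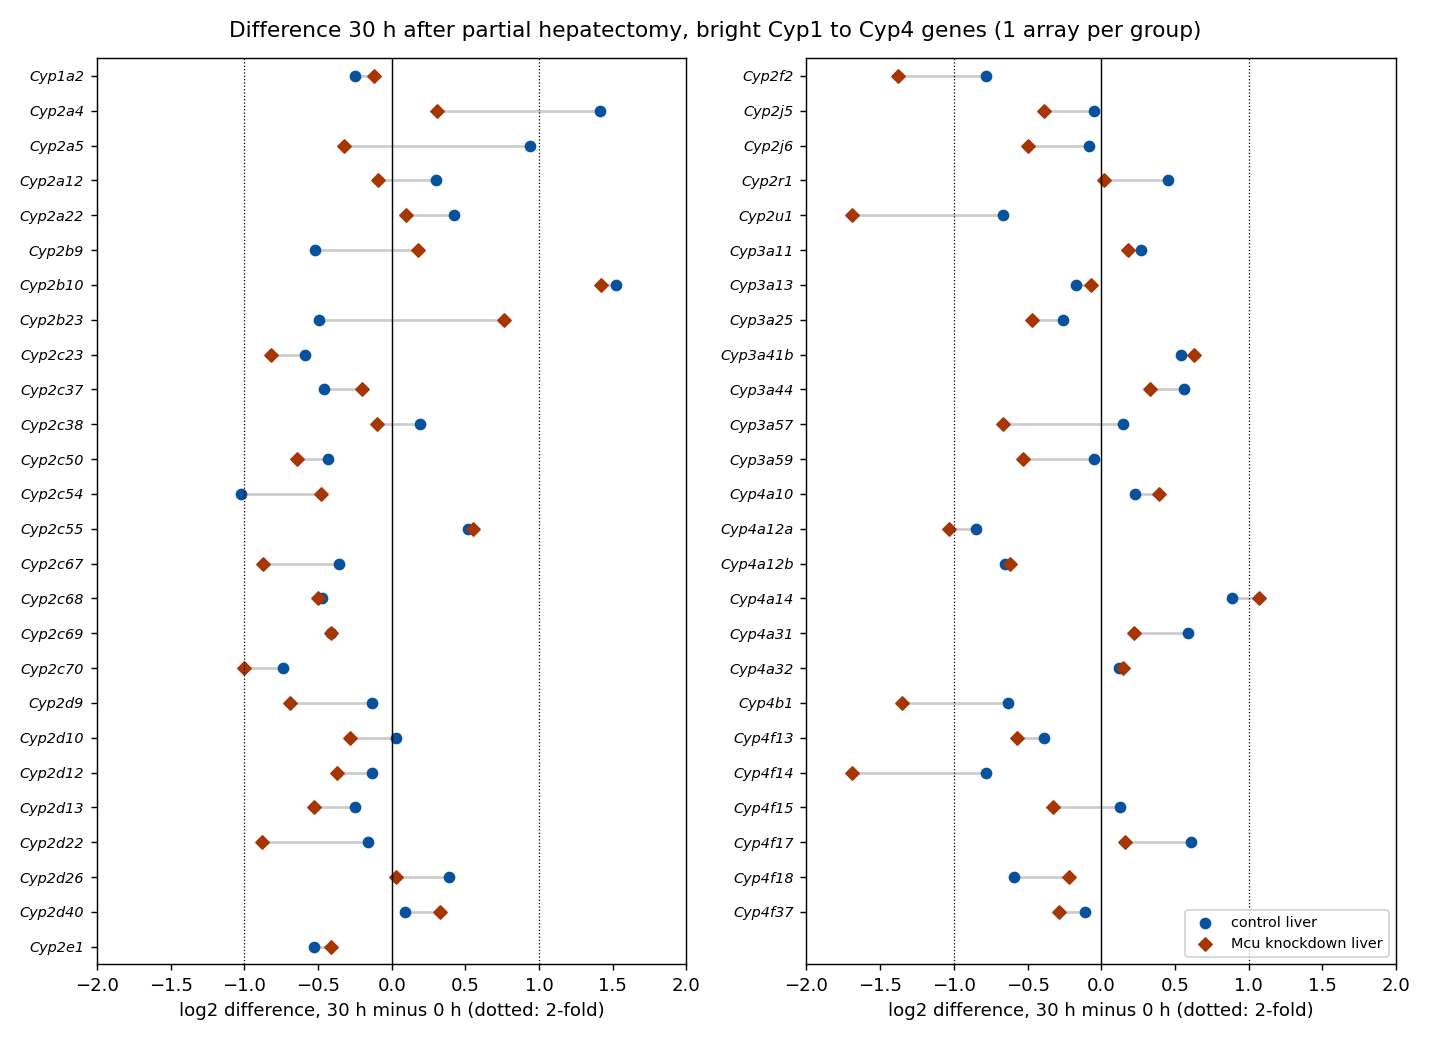
Log2 difference between 30 h and 0 h for each bright member, in control liver and in knockdown liver, with 1 array behind each value, so no error bars. Most points lie below 0, Cyp2b10 lies above 1 in both genotypes, and Cyp2u1 and Cyp4f14 have the lowest values in knockdown liver, both -1.69.

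Between genotypes the bright members lay where bright genes in general lay. At 0 h, 0 of 51 were at least 2-fold higher in the knockdown, beside 1.25% of all bright genes, and 1, Cyp4a14, was at least 2-fold lower, beside 0.635%. Above 0 lay 31 of the 51, or 60.8%, beside 56.7% of all bright genes, and below it 20, or 39.2%, beside 42.2%. Their median was 0.11, that of all bright genes 0.06. At 30 h no bright member differed 2-fold in either direction, beside 1.14% of bright genes higher and 2.16% lower, and both medians were -0.11. Of 3002 genes with a mean of at least 6, 6 were at least 2-fold higher and 20 lower. Above 0 lay 20 members (39.2%, beside 37.8% of bright genes) and below it 31 (60.8%, beside 61.2%). The response difference, which is the knockdown's 30 h minus 0 h less that of the control, was at least 2-fold higher for Cyp2b23 alone, beside 3.24% of bright genes. It was at least 2-fold lower for 3 members, Cyp2a4, Cyp2a5 and Cyp2u1, 5.88% beside 7.43%. For the 3002 genes with a mean of at least 6, it was 2-fold higher for 13 and lower for 132. It was above 0 for 15 members (29.4%, beside 36.1%) and below 0 for 35 (68.6%, beside 63.2%). Its median of -0.23 lay beside -0.18 for all bright genes, and quantile or cyclic loess normalization put it at 0.00 and 0.02.

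**Figure D2:**
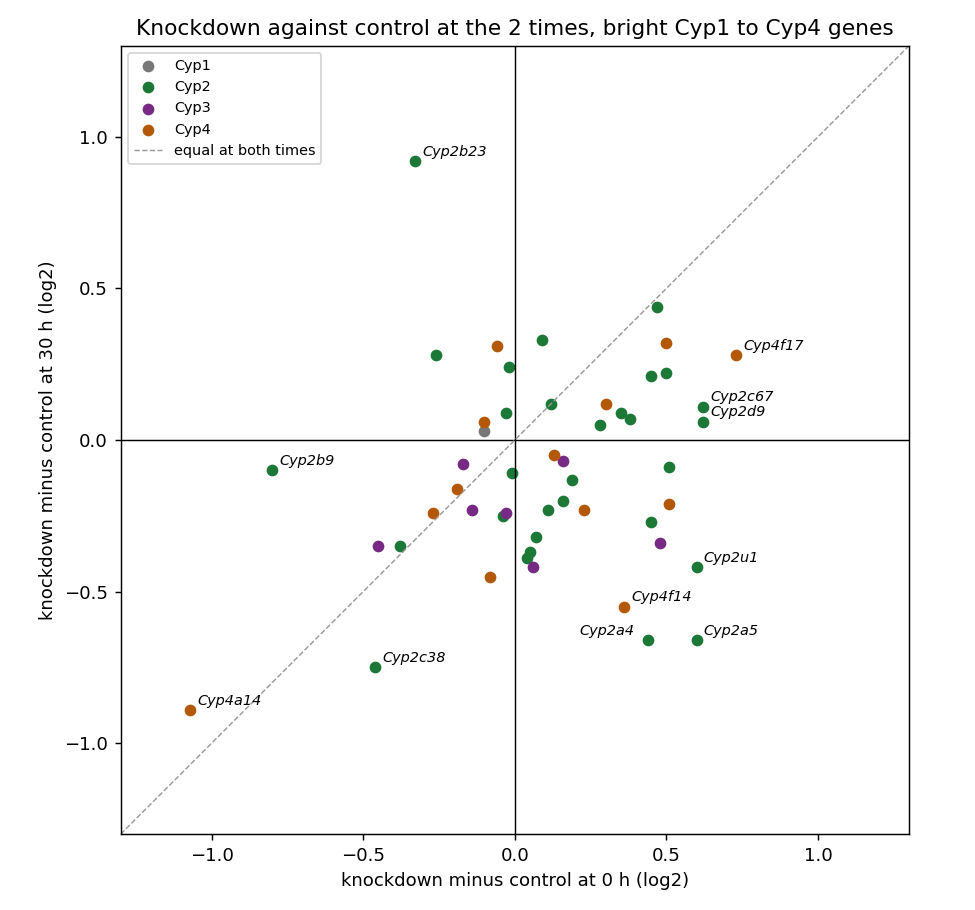
Knockdown minus control (log2) at 30 h against the same difference at 0 h for the 51 bright members, 1 array per group and no error bars. All points but that of Cyp4a14 lie within 1 of 0 on both axes; Cyp4a14 lies farthest to the left, at -1.07 and -0.89.

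In family Cyp1, whose genes are the textbook targets of the aryl hydrocarbon receptor, the bright member Cyp1a2 differed little between arrays. Cyp1a2, a hepatocyte enzyme that oxidises caffeine and aromatic amines, stood at 10.05 and 9.80 in control liver at 0 h and 30 h and at 9.95 and 9.83 in knockdown liver. Its 4 values thus lay within 0.25 of each other. Cyp1a1, which oxidises polycyclic aromatic hydrocarbons, was dim at 2.06, 3.41, 2.49 and 2.93 in the order control 0 h, control 30 h, knockdown 0 h, knockdown 30 h, an order kept below. Cyp1b1, mostly an enzyme of tissues other than liver, was dim as well, at 1.97, 3.09, 2.44 and 2.80. For both dim genes the control array at 30 h was the highest, and the control at 0 h the lowest. Of 3 other targets of this receptor, Nqo1, which reduces quinones, read 4.06, 4.87, 4.23 and 3.77, which made it 2.14-fold lower in the knockdown at 30 h. Ahr itself read 5.50, 6.24, 5.41 and 5.86.

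**Figure D3:**
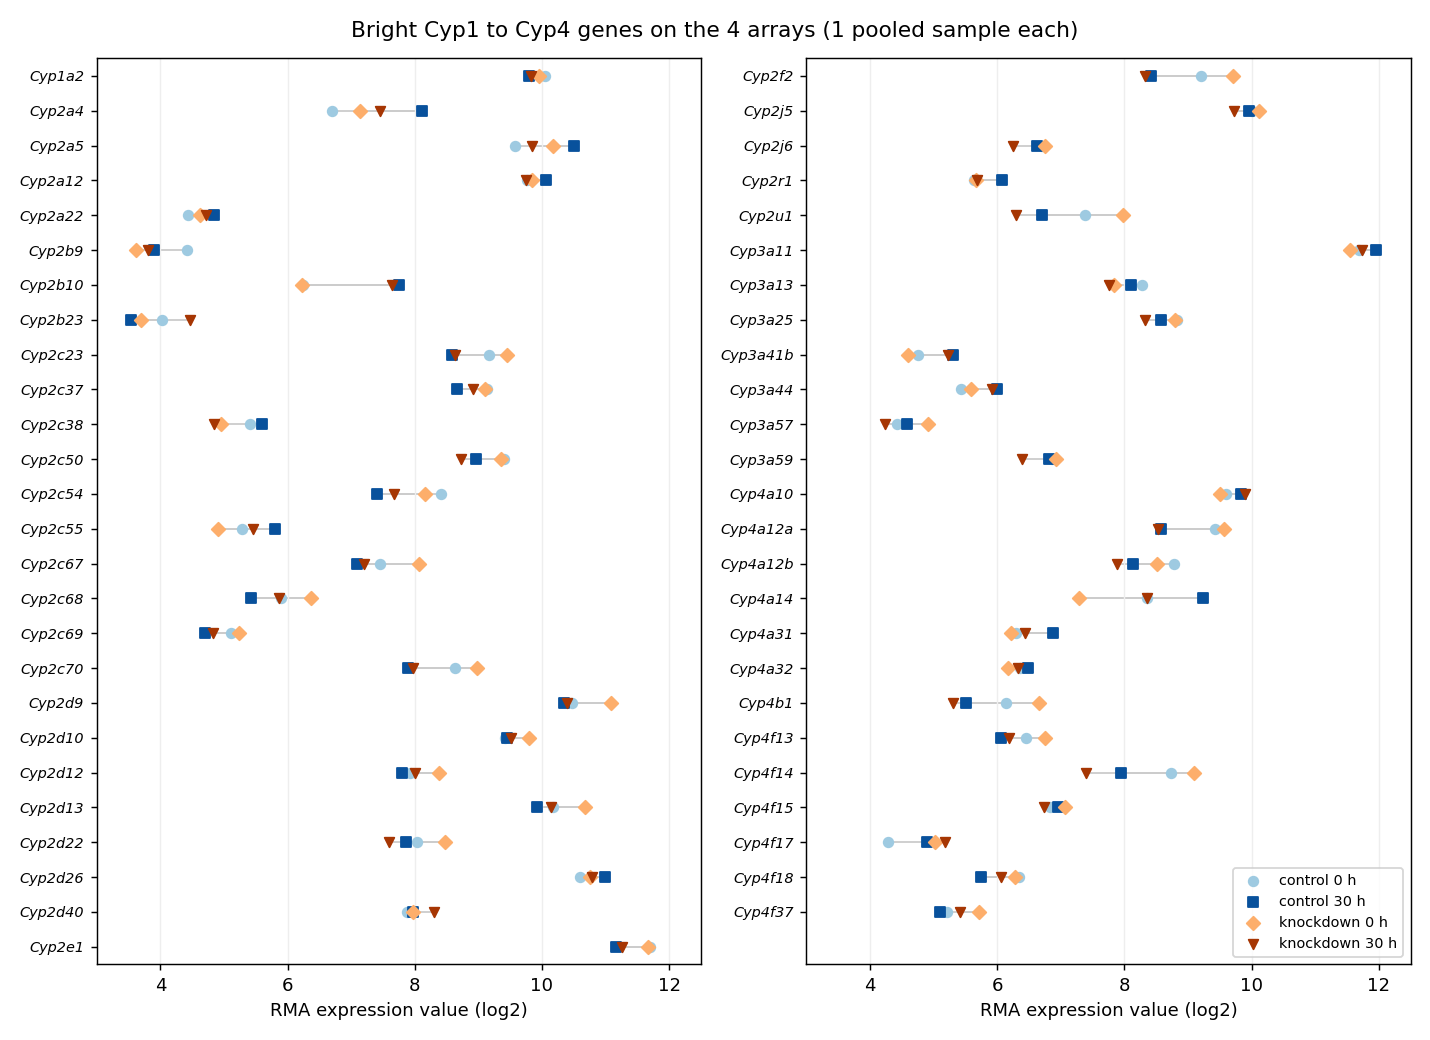
Log2 values of all bright members on the 4 arrays (control 0 h, control 30 h, knockdown 0 h, knockdown 30 h), grouped by family, with 1 array per group. The values run from 3.54 for Cyp2b23 to 11.96 for Cyp3a11, both in control liver at 30 h.

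All 4 bright Cyp2a members were above their 0 h value at 30 h in control liver, under each scaling, beside 58.2% of all bright genes. The Cyp2a median was 0.68 in control and 0.01 in knockdown liver, beside 0.10 and -0.04 for all bright genes. Cyp2a5, which hydroxylates coumarin and nicotine, read 9.57, 10.51, 10.17 and 9.85. Its highest array was thus the control at 30 h and its lowest the control at 0 h. At 30 h it was 1.92-fold above 0 h in control liver and 1.25-fold below it in knockdown liver. Cyp2a4, a testosterone hydroxylase with higher levels in female liver, read 6.70, 8.11, 7.14 and 7.45. It was 2.66-fold higher at 30 h in control liver and 1.24-fold higher in knockdown liver. The order of the arrays was the same as for Cyp2a5, apart from the knockdown pair. Cyp2a12, another testosterone hydroxylase, read 9.77, 10.07, 9.84 and 9.75, and Cyp2a22 read 4.43, 4.85, 4.62 and 4.72.

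All 4 Cyp2a members were lower in the knockdown at 30 h, beside 61.2% of all bright genes. The Cyp2a differences ran from -0.66 for both Cyp2a4 and Cyp2a5 to -0.13 for Cyp2a22. All 4 kept that side under median centring, quantile, cyclic loess and bright-gene centring. At 0 h all 4 were higher in the knockdown, beside 56.7% of all bright genes, and 3 were so under quantile and cyclic loess normalization. The response differences of Cyp2a5 and Cyp2a4 were -1.26 and -1.10, and whether they exceed the spread between animals was not tested. The 245 of 249 promoter bases that this pair shares, shown above, illustrate how close the copies are, and signal shared between their probe sets was not tested.

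Within Cyp2b, whose members are known targets of the constitutive androstane receptor (CAR, gene Nr1i3), Cyp2b10 was the member with the same large difference in both genotypes. Cyp2b10, the gene by which CAR activity is usually read, stood at 6.24, 7.76, 6.23 and 7.65. Both 30 h arrays were above both 0 h arrays, by 2.87-fold in control liver and 2.68-fold in knockdown liver, and the genotypes were within 0.11 at each time. Cyp2b9, with higher levels in female liver, read 4.42, 3.90, 3.62 and 3.80, so that the control at 0 h was highest. Cyp2b23 read 4.03, 3.54, 3.70 and 4.46, close to the brightness limit, with a response difference of 1.25. Cyp2b13 and Cyp2b19 were dim, at 2.13 to 2.89 and 2.26 to 3.58.

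The other genes under CAR and the pregnane X receptor (PXR, gene Nr1i2) had mixed signs. Of 5 further measured P450 genes listed as induced by these receptors, Cyp2c55 and Cyp3a11 were higher at 30 h in each genotype, and Cyp2c37, Cyp2c50 and Cyp2c54 were lower. Cyp2c29, also on this list, had no named probe set and is not among the members. Nr1i3 read 7.30, 7.46, 7.34 and 7.60, and Nr1i2 read 5.10, 6.54, 5.52 and 5.74. The control array at 30 h was the high one for Nr1i2, 2.71-fold above control at 0 h and 1.74-fold above the knockdown at 30 h. Of 8 measured targets outside the P450 genes, 6 were higher at 30 h in control liver, with a median of 0.38, and 3 in knockdown liver. Of all bright genes 58.2% and 46.2% were higher. In control liver quantile and cyclic loess normalization gave 4 and 5 of the 8 targets. Among these targets Gsta2, a glutathione transferase, read 5.68, 6.15, 5.85 and 4.92 and was 2.35-fold lower in the knockdown at 30 h. Abcb1a, a drug efflux pump, read 2.27, 4.64, 2.77 and 2.61, a dim gene with a high value on the control array at 30 h.

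Cyp2c genes were mostly lower after surgery. Of 10 bright Cyp2c members, 8 were lower at 30 h in control liver and 9 in knockdown liver, with medians of -0.45 and -0.49. Of all bright genes 40.8% and 53.1% were lower. The Cyp2c counts were the same under all 4 other scalings. The Cyp2c genes are paralogues, so these counts are not of independent genes, and signal shared between their probe sets was not tested. Cyp2c70, the enzyme that makes muricholic acids, the bile acids typical of mice, read 8.63, 7.89, 8.98 and 7.98. Both 30 h arrays were below both 0 h arrays, by 1.67-fold in control and 2.0-fold in knockdown liver. Cyp2c54, a CAR-responsive gene, read 8.42, 7.40, 8.16 and 7.68, with both 30 h values again below both 0 h values, by 2.03-fold in control liver.

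Arachidonic acid epoxygenation is the known activity of Cyp2c23, also named Cyp2c44, which read 9.17, 8.58, 9.45 and 8.63. Cyp2c67 read 7.45, 7.09, 8.07 and 7.20. Both genes were lower at 30 h than at 0 h in each genotype. The near-copies Cyp2c50 (9.40, 8.97, 9.36 and 8.72) and Cyp2c37 (9.13, 8.67, 9.11 and 8.91) had the same order of times. Cyp2c68 and Cyp2c69 were lower at 30 h too, by 0.41 to 0.50. Against these, Cyp2c55 read 5.29, 5.81, 4.91 and 5.46 and was 0.52 and 0.55 higher at 30 h, and Cyp2c38 was 0.19 higher in control and 0.10 lower in knockdown liver. Cyp2c38 had the lowest knockdown value relative to control of the subfamily, at -0.46 at 0 h and -0.75 at 30 h. Of the 10 members, 5 were lower in the knockdown at 0 h and 3 at 30 h, beside 42.2% and 61.2% of all bright genes.

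The Cyp2d genes, many of them highly expressed in male liver, were higher in the knockdown at 0 h. All 7 bright members were above control there, with a median of 0.45, and 6 of 7 under quantile and cyclic loess normalization. Of all bright genes 56.7% were above control, with a median of 0.06. No Cyp2d difference reached 2-fold. These genes are paralogues, and signal shared between their probe sets was not tested. Cyp2d9, a testosterone hydroxylase of male liver, read 10.47, 10.34, 11.09 and 10.40, so the knockdown at 0 h stood apart from the other 3 arrays by at least 0.62. Cyp2d22 read 8.03, 7.87, 8.48 and 7.60. It too was highest in the knockdown at 0 h, and it was the lowest in the knockdown at 30 h. Cyp2d13 (10.18, 9.93, 10.68 and 10.15) and Cyp2d12 (7.93, 7.80, 8.38 and 8.01) were also highest there. Cyp2d26 was highest in control liver at 30 h, at 10.99, and Cyp2d40 in knockdown liver at 30 h, at 8.30. At 30 h the subfamily median between genotypes was 0.07.

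Among the remaining Cyp2 genes, Cyp2u1 and Cyp2f2 stood lowest at 30 h relative to 0 h in knockdown liver. Cyp2u1, which hydroxylates long-chain fatty acids, read 7.38, 6.71, 7.98 and 6.29. The knockdown arrays were at the extremes, highest at 0 h and lowest at 30 h, a 3.23-fold lower value at 30 h beside 1.59-fold lower in control liver. Cyp2f2, which oxidises naphthalene and is found around the portal vein, read 9.20, 8.42, 9.71 and 8.33. It was 2.60-fold lower at 30 h in knockdown and 1.72-fold lower in control liver. Both genes had the order of times in common with Cyp2c70.

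Cyp2e1, which oxidises ethanol and marks the hepatocytes around the central vein, read 11.70, 11.17, 11.67 and 11.26. The 30 h arrays were lower by 0.53 and 0.41, and the genotypes differed by no more than 0.09 at either time. Cyp2j5 and Cyp2j6, which make epoxides of arachidonic acid, were lower at 30 h by 0.05 and 0.08 in control liver and by 0.39 and 0.50 in knockdown liver. Cyp2r1, a vitamin D hydroxylase, read 5.63, 6.08, 5.67 and 5.69. Its control array at 30 h was thus higher than the other 3, which lay within 0.06.

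**Figure D4:**
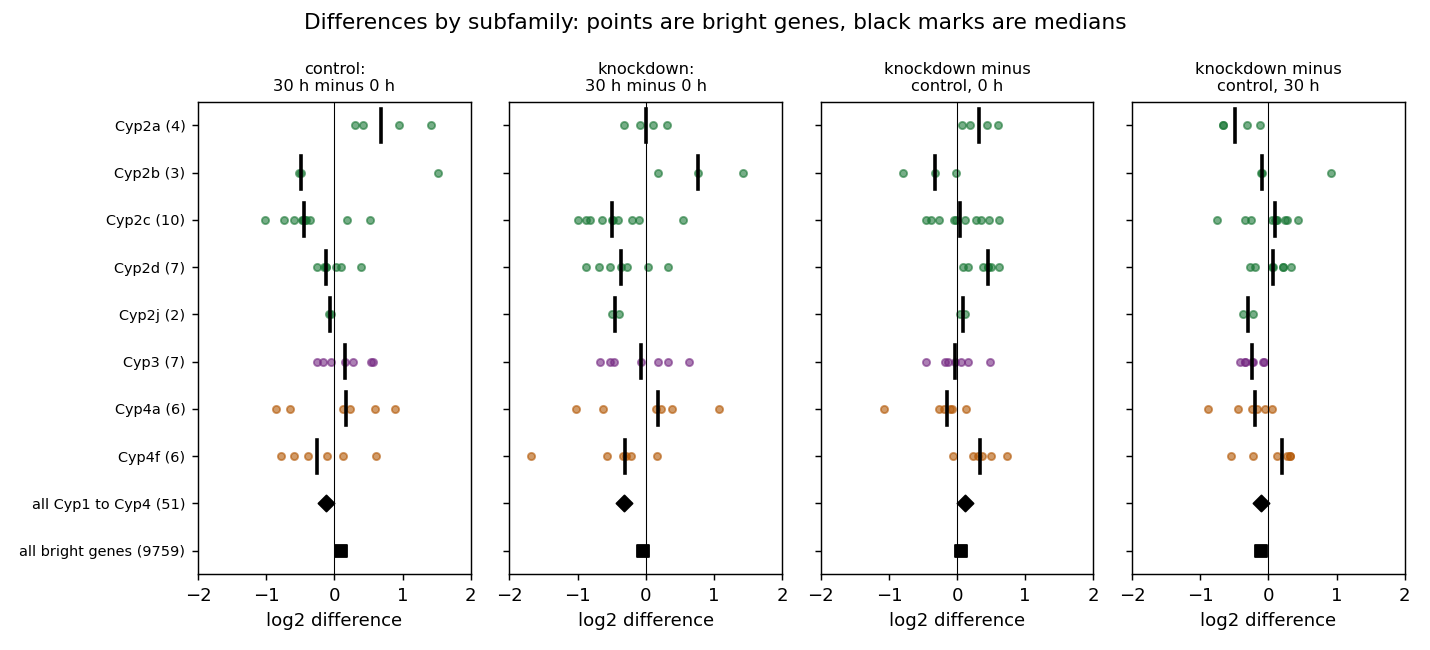
Log2 differences of Cyp2a, Cyp2b, Cyp2c, Cyp2d, Cyp2j, Cyp3, Cyp4a and Cyp4f in the compared groups, with their bright members as points and their medians as bars. The medians of all bright members and of all bright genes are given below them. Bright members outside these groups (Cyp1a2, Cyp2e1, Cyp2f2, Cyp2r1, Cyp2u1 and Cyp4b1) are not drawn as points. There is 1 array per group, so no error bars. The Cyp2c medians at 30 h minus 0 h are -0.45 in control and -0.49 in knockdown liver, and the Cyp2a median is 0.68 in control liver.

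Family Cyp3, whose enzymes carry out much of the drug oxidation in liver, held no bright member, of 7, with a 2-fold difference in any of the 5 comparisons. Cyp3a11, its most studied mouse member and a PXR target, read 11.69, 11.96, 11.55 and 11.73. Both 30 h values were above the 0 h value of the same genotype, by 0.27 and 0.18. Cyp3a13 read 8.28, 8.11, 7.83 and 7.76, with both knockdown arrays below both control arrays, by 0.45 at 0 h and 0.35 at 30 h. Cyp3a25 read 8.83, 8.57, 8.80 and 8.33, and Cyp3a59 read 6.86, 6.81, 6.92 and 6.39. For both of these the knockdown at 30 h was the lowest array. Cyp3a57 had the same lowest array, at 4.43, 4.58, 4.91 and 4.24.

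Cyp3a41b and Cyp3a44, which are known for high levels in female liver, were higher at 30 h in both genotypes. Cyp3a41b read 4.76, 5.30, 4.59 and 5.22, and Cyp3a44 read 5.43, 5.99, 5.59 and 5.92. The dim copy Cyp3a41a had the same order, at 3.43, 4.19, 3.24 and 4.03, with 30 h above 0 h by 0.76 and 0.79. The 249 of 250 shared promoter bases of Cyp3a41a and Cyp3a41b are those printed above, and probe signal shared by these copies was not tested. Cyp3a16 was dim, at 2.71 to 2.94. All 7 bright Cyp3 members were lower in the knockdown at 30 h, with a median of -0.24. Of all bright genes 61.2% were lower, with a median of -0.11. Under quantile, cyclic loess and bright-gene centred values 5 of the 7 Cyp3 members were lower.

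Family Cyp4 held both the bright member with the largest difference between genotypes at 0 h and some of the lowest 30 h values. Cyp4a14, a fatty acid hydroxylase and target of the fatty acid receptor PPARalpha (gene Ppara), read 8.35, 9.24, 7.28 and 8.35. Each knockdown array was below the control of its time, 2.10-fold at 0 h and 1.85-fold at 30 h, and each 30 h array was above its 0 h array, 1.85-fold in control and 2.10-fold in knockdown liver. The knockdown at 30 h thus equalled the control at 0 h. Cyp4a10, the other well-known target, read 9.60, 9.83, 9.50 and 9.89, with 30 h above 0 h by 0.23 and 0.39 and genotypes within 0.10. Cyp4a31 (6.29, 6.88, 6.21 and 6.43) and Cyp4a32 (6.36, 6.48, 6.17 and 6.32) also had their higher values at 30 h.

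These 4 PPARalpha-induced genes were all higher at 30 h in both genotypes, with medians of 0.41 and 0.30, beside 58.2% and 46.2% of all bright genes. In control liver 2 of the 4 were so under quantile and 3 of 4 under cyclic loess normalization. All 4 were lower in the knockdown at 0 h, beside 42.2% of all bright genes. This held under all 4 other scalings as well, although for 3 of the 4 the difference was 0.19 or less. The 4 genes are paralogues of the same subfamily, and signal shared between their probe sets was not tested. Ppara read 6.16, 5.88, 6.16 and 5.51, lowest in the knockdown at 30 h. Of 9 measured PPARalpha targets outside the P450 genes, 6 were higher in control and 5 in knockdown liver at 30 h, beside the same 58.2% and 46.2%. At 0 h these outside targets did not share the lower side in the knockdown. There, 6 of the 9 were above control and 3 below it, with a median of 0.07, beside 56.7% of all bright genes above. Cd36, a fatty acid transporter, was 2.36-fold lower in the knockdown at 30 h; it read 4.50, 5.69, 4.31 and 4.45, with the control at 30 h apart from the other 3.

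Cyp4a12a and Cyp4a12b, male-biased hydroxylases of arachidonic acid, were lower at 30 h, unlike the other 4 bright Cyp4a members. Cyp4a12a read 9.43, 8.58, 9.56 and 8.53, 1.80-fold lower at 30 h in control and 2.04-fold lower in knockdown liver. Cyp4a12b read 8.78, 8.13, 8.51 and 7.89. In both genes each 30 h array was below each 0 h array. They are near-copies, and shared probe signal was not tested.

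Cyp4f14, a member of a subfamily that inactivates leukotrienes and other lipids, was among the lowest relative to 0 h of all members. It read 8.73, 7.95, 9.09 and 7.40, which is 1.72-fold lower at 30 h in control and 3.23-fold lower in knockdown liver. Both 30 h arrays were below both 0 h arrays. Cyp4b1, an enzyme known mainly from lung, read 6.14, 5.51, 6.65 and 5.30 and was 1.55-fold lower in control and 2.55-fold lower in knockdown liver. As with Cyp2u1, Cyp2f2 and Cyp4f14, the knockdown arrays were its highest at 0 h and its lowest at 30 h.

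The other Cyp4f genes had smaller differences than Cyp4f14. Cyp4f17 read 4.29, 4.90, 5.02 and 5.18, lowest in control liver at 0 h, and Cyp4f18, which hydroxylates leukotriene B4 in neutrophils, read 6.34, 5.75, 6.28 and 6.06. Cyp4f13 (6.45, 6.06, 6.75 and 6.18) was lower at 30 h in both genotypes, and Cyp4f37 (5.21, 5.10, 5.71 and 5.42) was higher in both knockdown arrays than in the controls. Cyp4f15 lay between 6.73 and 7.06. Of the 6 bright Cyp4f members, 5 were higher in the knockdown at 0 h and 4 at 30 h, beside 56.7% and 37.8% of all bright genes. The Cyp4f counts were the same under the other 4 scalings. All 5 neutrophil markers were measured, and all were dim. Their means were 2.54, 2.96, 2.73 and 3.05 and their linear sums 30.4, 41.2, 35.4 and 42.5, higher at 30 h. In each genotype 4 of them were higher at 30 h and 1 was lower, Retnlg in control and S100a9 in knockdown liver. The part of neutrophils in these values was not tested.

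Male-biased and female-biased members mostly had opposite signs after surgery in these male livers. The 3 male-biased genes Cyp2d9, Cyp4a12a and Cyp4a12b were all lower at 30 h in both genotypes, with medians of -0.65 and -0.69, and they were so under all 4 other scalings. Of 10 measured female-biased genes, 6 of them bright, 7 were higher at 30 h in each genotype, with medians of 0.42 and 0.32. Bright-gene centring gave 6 and 8. Of all bright genes 58.2% and 46.2% were higher, and 40.8% and 53.1% lower. Of 9746 dim genes, 3882 were higher in control and 5289 in knockdown liver. The 7 were not the same genes: Cyp2c40 and Cyp3a16 were higher in control liver only, Cyp2b13 and Cyp2b9 in knockdown liver only. Of these, Cyp2c40, Cyp3a16 and Cyp2b13 are dim. Cyp3a16 was counted as higher on a difference of 0.01 in control liver, beside 0.0 in knockdown liver, which is too small to read as a direction. Among those higher in both were the near-copies Cyp3a41a and Cyp3a41b. The female-biased genes at least 2-fold higher were Cyp2a4 in control liver and Cyp4a14 in knockdown liver. The growth hormone signal transducer Stat5b read 6.15, 5.21, 6.03 and 5.43, so both 30 h arrays were below both 0 h arrays. Cux2, a factor known for female liver, read 4.50, 3.92, 4.56 and 3.93, lower at 30 h in each genotype like Stat5b. Bcl6, a repressor known to be higher in male liver, read 5.45, 4.26, 5.84 and 3.80, and it was 2.28-fold lower at 30 h in control and 4.11-fold lower in knockdown liver.

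Pericentral genes, those known for expression around the central vein, were mostly lower at 30 h, as were the bright members in general. Of 9 listed genes 8 were measured, as Cyp2c29 had no named probe set. Of these 8, 5 were lower at 30 h in control and 7 in knockdown liver, with medians of -0.34 and -0.26. Of all bright members 58.8% and 66.7% were lower, and of all bright genes 40.8% and 53.1%. The pericentral genes lower in both genotypes were Cyp1a2, Cyp2c37, Cyp2c50, Cyp2c54 and Cyp2e1. Cyp2a5 and Cyp2c38 were higher in control and lower in knockdown liver, and Cyp3a11 was higher in both.

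Among the other receptors and factors known to control P450 genes, 14 of 15 were measured. Cebpa, the hepatocyte C/EBP factor, read 8.41, 7.36, 8.57 and 7.18, which is 2.07-fold lower at 30 h in control and 2.62-fold lower in knockdown liver. Its relative Cebpb went the other way, at 6.74, 7.46, 6.89 and 7.40. Hnf4a, which keeps hepatocyte genes active, read 7.84, 7.91, 7.55 and 7.69, so its 4 arrays lay within 0.36. Nr1h4, the bile acid receptor, read 6.10, 6.02, 6.43 and 5.62.

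Of the partners of P450 enzymes in electron transfer, 5 of 6 were measured, and these had no 2-fold difference in any comparison. Por, the P450 reductase, had no named probe set, so nothing is known here about its level. Cyb5b read 7.38, 7.15, 7.63 and 6.72, and Cyb5r3, which reduces cytochrome b5, read 8.72, 8.25, 8.73 and 7.83. Both were lowest in the knockdown at 30 h. All 5 measured partners were lower in the knockdown at 30 h, with a median of -0.28, under each other scaling as well. On the deposited scale so were 61.2% of all bright genes and 2184 of 3002 genes with a mean of at least 6.

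Heme, which every P450 enzyme needs, is made by a pathway whose rate-limiting enzyme is Alas1. Alas1 read 7.85, 10.08, 8.0 and 10.12, and both 30 h arrays stood above both 0 h arrays, 4.69-fold in control and 4.35-fold in knockdown liver. Of the 10 measured heme genes, 8 were higher at 30 h in control and 6 in knockdown liver, beside 58.2% and 46.2% of all bright genes. Alad, the next enzyme of the pathway, read 7.28, 8.49, 7.98 and 8.13, lowest in control at 0 h and highest in control at 30 h. Hmox1, which breaks heme down, read 5.50, 6.61, 5.78 and 6.50, with both 30 h arrays high. Blvra and Blvrb, which reduce the products of heme breakdown, had response differences of -1.27 and -1.0, and Fech, which inserts the iron, was lower at 30 h by 0.47 and 0.50.

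Acute phase genes, which mark the inflammatory response of hepatocytes, were all higher at 30 h. This held for 12 of 12 measured genes in each genotype, 10 of them at least 2-fold in control and 9 in knockdown liver, with medians of 1.98 and 1.9. Of all bright genes 5.98% and 2.64% were at least 2-fold higher. The part of the acute phase response in the lower P450 values was not tested.

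Of the 26 dim members, 3 passed 2-fold upward and 1 downward at 30 h in control liver, beside 2.4% and 2.83% of all dim genes. None did at 30 h in knockdown liver (all dim genes 2.8% and 1.28%), between genotypes at 0 h (1.64% and 1.87%) or between genotypes at 30 h (3% and 1.56%). Their response differences passed it upward for 1 and downward for 3, beside 8.77% and 4.22%. The 3 higher in control liver were Cyp1a1, Cyp1b1 and Cyp2b19, and the lower gene was Cyp4a29, which read 3.06, 1.89, 3.08 and 2.73. Their values lie low on the scale, where folds are understated and noise is larger.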

How the data were processed

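The authors deposited 1 table of log2 expression values per probe set, made by RMA with the Affymetrix Expression Console software (per the submitters' processing notes); tool versions and the genome build: not given in the sources used here. RMA puts the arrays on a common scale, so a shift common to the whole array is lost. Of 22206 probe sets, 19572 had 1 gene symbol in the platform annotation, 0 had several and 2634 were unnamed; all 77 members matched the RefSeq annotation by Entrez ID. Differences of log2 values were taken between arrays, and 2-fold means a log2 difference of 1. The number of arrays, 1 per group, limits the precision. The named genes were all bright Cyp1 and Cyp3 members, any Cyp2 or Cyp4 member past 2-fold or among the 3 largest in a comparison, list genes by the same rule, and further bright members by choice. The members and lists were chosen with earlier results of these data known. The alternatives were the filter on dim genes, a size rule of 1.5-fold or 3-fold, averaged probe sets and 4 other scalings. The counting code was tested on simulated data. Python 3.11.15, pandas 2.3.3, R 4.3.3 and limma 3.58.1 were used. One label item is not reported here.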

Additional observations from a re-analysis of the deposited data

Results flagged for a closer look

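Several members had opposite signs in the 2 genotypes or at the 2 times, with 1 array per group. None of these differences was tested. Positive at 0 h and negative at 30 h between genotypes were 18 of 51 bright members (35.3%), beside 35.2% of all bright genes; higher at 30 h in control and lower in knockdown liver were 6 (11.8%), beside 26.8%. The members named here are those whose pair differed by at least 2-fold. For Cyp2a5, 30 h minus 0 h was positive in control and negative in knockdown liver, and knockdown minus control was positive at 0 h and negative at 30 h; the difference of the pair is -1.26 either way. Cyp2b23, a gene close to the brightness limit, had the opposite signs, with a difference of 1.25. For Cyp2a4 and Cyp2u1, knockdown minus control was positive at 0 h and negative at 30 h, with differences of -1.10 and -1.02.

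Family medians did the same with smaller values. The median of bright Cyp3 members at 30 h minus 0 h was above 0 in control and below 0 in knockdown liver, a difference of -0.22. Knockdown minus control had a positive median at 0 h and a negative one at 30 h over all bright members, over bright Cyp2 and over bright Cyp4, with differences of -0.22, -0.24 and -0.29. All bright genes of the array had the same pair of signs, with medians of 0.06 and -0.11. These signs did not hold under quantile normalization, where the members' medians were -0.01 at 0 h and 0.04 at 30 h, those of Cyp4 were -0.01 and 0.06, and that of Cyp2 at 30 h was 0.06.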

How the results depend on the processing

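No paired analysis was possible because each group had 1 array, and for the same reason no array could be left out. The alternative that leaves out members with near-identical proteins was not run, since no protein sequences were used here. Each member has 1 probe set, so taking the mean of probe sets moved nothing. In control liver at 30 h the 2 higher members became 5 without the filter, 6 at 1.5-fold and 0 at 3-fold; the 1 lower member became 2 without the filter, 10 at 1.5-fold, 0 at 3-fold, 5 under quantile and 4 under cyclic loess normalization, and the median of -0.13 became -0.38 and -0.34 under the last 2. In knockdown liver the 2 higher became 4 at 1.5-fold and 0 at 3-fold, the 6 lower became 13 and 2, and the median of -0.32 became -0.14 without the filter. At 0 h the 0 higher in the knockdown became 5 at 1.5-fold, the 1 lower became 2 at 1.5-fold and 0 at 3-fold, and the median of 0.11 turned to -0.01 (quantile) and -0.02 (loess). At 30 h the 0 higher became 1 at 1.5-fold and 1 under bright-gene centring (chosen after seeing the data), the 0 lower became 4 at 1.5-fold, and the median of -0.11 turned to 0.04 (quantile) and 0.00 (loess and bright-gene centring). For the response difference the 1 higher became 2 without the filter, 0 above percentile 75, 2 at 1.5-fold and 0 at 3-fold; the 3 lower became 6 without the filter, 8 at 1.5-fold, 0 at 3-fold and 1 under quantile, loess and bright-gene centring, and the median of -0.23 became 0.00, 0.02 and -0.05 under these. Among the medians that turned under quantile and loess were those of Cyp4a at 30 h minus 0 h in control liver (-0.08 and -0.03), of Cyp4 between genotypes at 0 h (-0.01 and 0.00) and 30 h (0.06 and 0.03), of Cyp2 between genotypes at 30 h (0.06 and 0.06, and 0.01 with bright-gene centring), of Cyp2c at 0 h (-0.04 and -0.04, and -0.01 with bright-gene centring) and Cyp2j at 0 h (-0.01 and -0.03), of the Cyp4 response difference (0.08 and 0.08) and of the Cyp2c response difference (0.11, 0.09 and, with bright-gene centring, 0.06); the Cyp3 response difference turned under loess (0.06). Cyp2c70 in knockdown liver (-0.95 to -0.96), Cyp4a12a there (-0.99 with bright-gene centring) and the response differences of Cyp2a4 (-0.81 to -0.92) and Cyp2u1 (-0.69 to -0.84) went under 2-fold in some scalings. All 28 members lower in both genotypes stayed so under the 4 other scalings, which counted 28 to 30 of 51 (54.9% to 58.8%) beside 26.3% to 31.3% of all bright genes; up to 5 members changed sign in control liver. The cause of these shifts was not tested. Quantile normalization moved the median of all bright genes by -0.14 in control liver, and the split of bright genes 2-fold higher and lower there from 584 and 157 to 416 and 217.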

Other observations

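P450 genes outside families 1 to 4, which make bile acids and steroids or break down retinoids, held larger differences than the members above. Of 18 such genes 9 were bright. Cyp8b1, which directs bile acid synthesis towards cholic acid, was lower at 30 h by 3.53 in control and 3.76 in knockdown liver. Cyp17a1, a steroid hydroxylase, was higher at 30 h by 2.57 and 3.17. Both had the same sign in each genotype. Cyp26a1, which breaks down retinoic acid, read 5.60, 5.58, 3.62 and 5.34 in control at 0 h and 30 h and knockdown at 0 h and 30 h, so the knockdown at 0 h was apart from the other 3. The difference between genotypes at 0 h was -1.98, and it was not tested.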
